A study of Mus musculus with 6 samples.

Results

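The 10 genes that encode the core of transforming growth factor beta (TGF-beta) signaling were followed in RNA-seq of mouse RPE-choroid, the retinal pigment epithelium (RPE) together with the vascular choroid under it. They are the ligands Tgfb1, Tgfb2 and Tgfb3, the latent ligand binding protein Ltbp1, the receptors Tgfbr1 and Tgfbr2, and the signal transducers Smad2, Smad3, Smad4 and Smad7. The members were chosen by symbol, and all 10 were found among the 15663 genes listed for every library. All libraries came from C57BL/6 mice by the labels, and the methods give C57BL/6J males of 8 to 10 weeks. The control group was 3 healthy, untreated mice, and the subretinal fibrosis (SRF) group was 3 mice that received a two-stage laser treatment. In the SRF mice each eye had 4 laser burns, each lesion was burned again 10 days later, and the RPE-choroid was collected 20 days after that. No step that separates lesions from the tissue between them is described, and neither the labels nor the methods say whether the eyes of a mouse were pooled.

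TGF-beta is made as a latent complex, in which the growth factor stays bound to its own propeptide and is tied to the matrix by latent TGF-beta binding proteins. Integrins, thrombospondin and proteases release it. The free ligand binds the type II receptor Tgfbr2, which activates the type I receptor Tgfbr1, and this phosphorylates Smad2 and Smad3. These join Smad4 and enter the nucleus, where Smad7 is among the induced genes and in turn inhibits the receptor. In many tissues the pathway is known as a driver of myofibroblast formation and of collagen production, and much of it acts at the protein level, which RNA does not measure.

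None of the 10 members passed the criteria for a changed gene. Calls needed an adjusted p below 0.05 (edgeR quasi-likelihood, Benjamini-Hochberg) together with a log2 fold change beyond 0.5 in size, and 0% of all 13454 tested genes met both. With DESeq2, 1.14% of all tested genes and 0 of the 10 members were called. In edgeR's test 0 of the 10 members had an unadjusted p-value under 0.05, against 7.01% of all tested genes, made up of 4.16% with higher and 2.85% with lower values in SRF mice. The members' log2 fold changes (SRF minus control) ran from -0.21 for Ltbp1 to 0.53 for Tgfb1, with a median of 0.12 against 0.00 over all tested genes. The value was above 0 for 8 members and below it for 2. Counts on genes summed to between 13667310 and 24356023 per library, and the count behind a member ranged from 47 for Tgfb1 to 7997 for Tgfb3.

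The 6 libraries differed in the tissue they carried. All 10 RPE markers were detected. Their summed level was 43112 to 51137 CPM (counts scaled to a common library total) in control and 28635 to 38116 CPM in SRF mice. The largest part of that sum was Rgr, at 24327 to 27113 CPM in control and 13990 to 17560 CPM in SRF mice. Of the 10 markers, 5 had an unadjusted p-value under 0.05 with lower values in SRF, against 2.85% of all tested genes. The log2 fold change was below 0 for 9 markers and above 0 for 1, Best1 (0.32). Over 12 photoreceptor markers the mean log2 CPM was 8.42 in control replicate 1 and 8.46 in SRF replicate 3, and between 4.15 and 5.64 in the other libraries, so that these 2 libraries stand apart from their groups. In tissue of this kind, fewer cells of a type and less RNA per cell cannot be told apart.

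The 3 ligands are close relatives, and the end of their coding sequence shows where their letters differ. The last 60 coding bases before the stop codon, taken from GENCODE M21 transcripts on GRCm38, are given with capitals at the 21 positions where the 3 genes do not all share a base.
Tgfb1: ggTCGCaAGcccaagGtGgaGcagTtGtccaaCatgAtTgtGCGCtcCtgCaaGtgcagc
Tgfb2: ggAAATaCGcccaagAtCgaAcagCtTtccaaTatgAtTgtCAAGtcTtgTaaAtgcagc
Tgfb3: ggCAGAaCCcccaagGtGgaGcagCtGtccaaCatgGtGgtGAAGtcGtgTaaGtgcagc
These stretches lie in coding exons, at chr7:25704880-25704939 on the forward strand, chr1:186625451-186625510 on the reverse strand and chr12:86057783-86057842 on the reverse strand. Over the last 336 coding bases, which encode the mature growth factor, Tgfb1 was 68.8% identical to Tgfb2 and 73.5% to Tgfb3, and Tgfb2 was 70.8% identical to Tgfb3. The longest exact run shared by the longest coding transcripts was 12 bases for Tgfb1 and Tgfb2, 15 bases for either of them with Tgfb3, and 23 bases for Smad2 and Smad3. Such runs are far shorter than the transcripts, and each ligand was counted as a gene of its own. How well reads were told apart was not tested.

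Tgfb1 and Tgfb2 also differ in the letters in front of their start site. The 250 bases upstream of each start are from RefSeq on GRCm38.p6, and these 2 ligands are shown since Tgfb1 was the one member whose groups did not overlap in CPM and Tgfb2 had the smallest difference among the members. Capitals in Tgfb1 (chr7:25686752-25687001, forward strand) mark the GC box GGGCGG on either strand, and capitals in Tgfb2 (chr1:186705990-186706239, reverse strand) mark the SMAD-binding core CAGAC on either strand.
Tgfb1: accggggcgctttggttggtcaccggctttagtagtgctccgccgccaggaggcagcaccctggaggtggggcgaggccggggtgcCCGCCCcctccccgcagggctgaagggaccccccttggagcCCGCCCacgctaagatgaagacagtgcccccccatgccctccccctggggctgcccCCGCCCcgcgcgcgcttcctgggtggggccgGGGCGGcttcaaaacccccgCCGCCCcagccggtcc
Tgfb2: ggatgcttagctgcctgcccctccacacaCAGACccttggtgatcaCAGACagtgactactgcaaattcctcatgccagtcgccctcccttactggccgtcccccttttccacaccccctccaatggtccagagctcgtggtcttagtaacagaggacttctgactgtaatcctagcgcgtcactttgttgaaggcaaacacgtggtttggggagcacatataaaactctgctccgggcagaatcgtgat
The Tgfb1 window was 75.2% G and C and held 5 GC boxes, a sequence found in 32.7% of the 32851 promoter windows of the table. The Tgfb2 window was 53.6% G and C and held 2 SMAD-binding cores and 1 TATAAA sequence, which were found in 42.2% and 12.4% of all windows on either strand. The matches shown do not overlap each other, and a match of letters is a description of the window only. Windows were read for 6 members, namely these ligands, Tgfbr1, Tgfbr2, Smad3 and Ltbp1.

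Ligand transcripts were set side by side in FPKM, the authors' values per transcript length and mapped reads. FPKM did not follow the counts by the same factor in every library, as given below for Smad7 and Tgfb1. Tgfb3 was the most abundant member, at 38.7, 60.1 and 97.0 FPKM in control replicates 1, 2 and 3 and at 66.1, 102 and 117 FPKM in SRF replicates 1, 2 and 3. Tgfb2 stayed between 22.1 and 30.0 FPKM over the 6 libraries. Tgfb1 was the least abundant member in every library, at 1.24 to 1.58 FPKM in control and 1.89 to 2.67 FPKM in SRF mice. The ligand that is usually added to cultured cells to drive fibrosis was therefore the scarcest of the 3 in this tissue at the RNA level. Of the summed ligand FPKM, Tgfb3 made up 62.0% to 76.2% in control and 70.9% to 80.2% in SRF mice, and Tgfb1 made up 1.15% to 2.53% over all libraries.

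**Figure D1:**
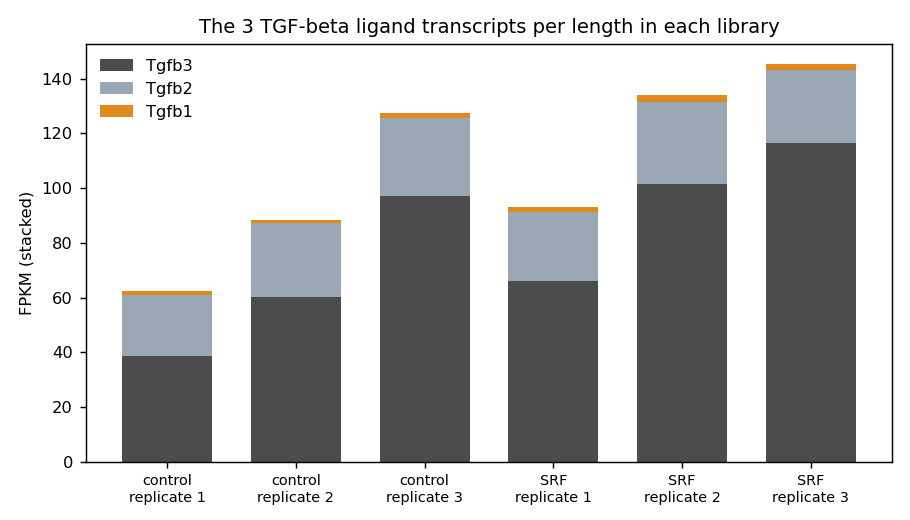
Stacked bars of the FPKM of Tgfb3, Tgfb2 and Tgfb1 in each of the 6 RPE-choroid libraries. Tgfb3 is the largest part of every bar, Tgfb1 is a thin band on top, and the bar of control replicate 3, at 127 FPKM, lies between those of the SRF replicates.

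The Tgfb2 share was 35.5%, 30.7% and 22.6% in control replicates 1, 2 and 3 and 27.1%, 22.4% and 18.3% in SRF replicates 1, 2 and 3. The groups overlapped, and the mean difference of -7.01 percentage points gave p = 0.2 in an exact permutation test, two-sided, in which 3 mice against 3 cannot go below 0.1. Of such quantities within a library 8 were examined, and the smallest adjusted p among them was 0.4 with Benjamini-Hochberg adjustment of the exact permutation tests. The FPKM ratio of Tgfb3 to Ltbp1 was the 1 ratio of the 8 whose groups did not overlap, at 1.86 to 2.29 in control and 2.36 to 4.29 in SRF mice (exact permutation test, two-sided, p = 0.1, adjusted 0.4).

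Tgfb1 (ENSMUSG00000002603, chromosome 7, 25687002 to 25705077, forward strand) encodes the isoform known for its roles in immune cells and in fibrosis. Its counts were 47, 51 and 78 in control replicates 1, 2 and 3 and 75, 89 and 84 in SRF replicates 1, 2 and 3. Scaled by edgeR's TMM method these were 3.50, 2.77 and 3.25 CPM in control and 4.06, 4.96 and 4.71 CPM in SRF mice. Every SRF mouse was above every control mouse, with means of 3.17 ± 0.373 CPM (SD, n = 3) and 4.57 ± 0.465 CPM (SD, n = 3). The groups did not overlap with higher SRF values for 1 of the 10 members, against 6.71% of all tested genes, and with lower SRF values for 0 of the 10, against 6.43%. The log2 fold change was 0.53 (standard error 0.27, 95% confidence interval -0.12 to 1.17), and the adjusted p was 0.804 (edgeR quasi-likelihood, Benjamini-Hochberg). It stayed between 0.41 and 0.61 over 19 other settings, in which the adjusted p with Benjamini-Hochberg adjustment was at least 0.405.

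Markers of macrophages and microglia, cells that transcribe Tgfb1, also differed between the groups. Of 12 such markers, 7 had an unadjusted p-value under 0.05 with higher values in SRF, against 4.16% of all tested genes, and the summed level was 1254 to 1637 CPM in control and 2940 to 4312 CPM in SRF mice. Most of that sum was Lyz2, at 743 to 1004 CPM in control and 2078 to 3305 CPM in SRF mice. Csf1r and Itgam hardly differed, with log2 fold changes of -0.03 and 0.03. The median log2 fold change of this list was 0.61, and none of its markers was at 0 in any library. The part of these cells in the Tgfb1 value was not tested.

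**Figure D2:**
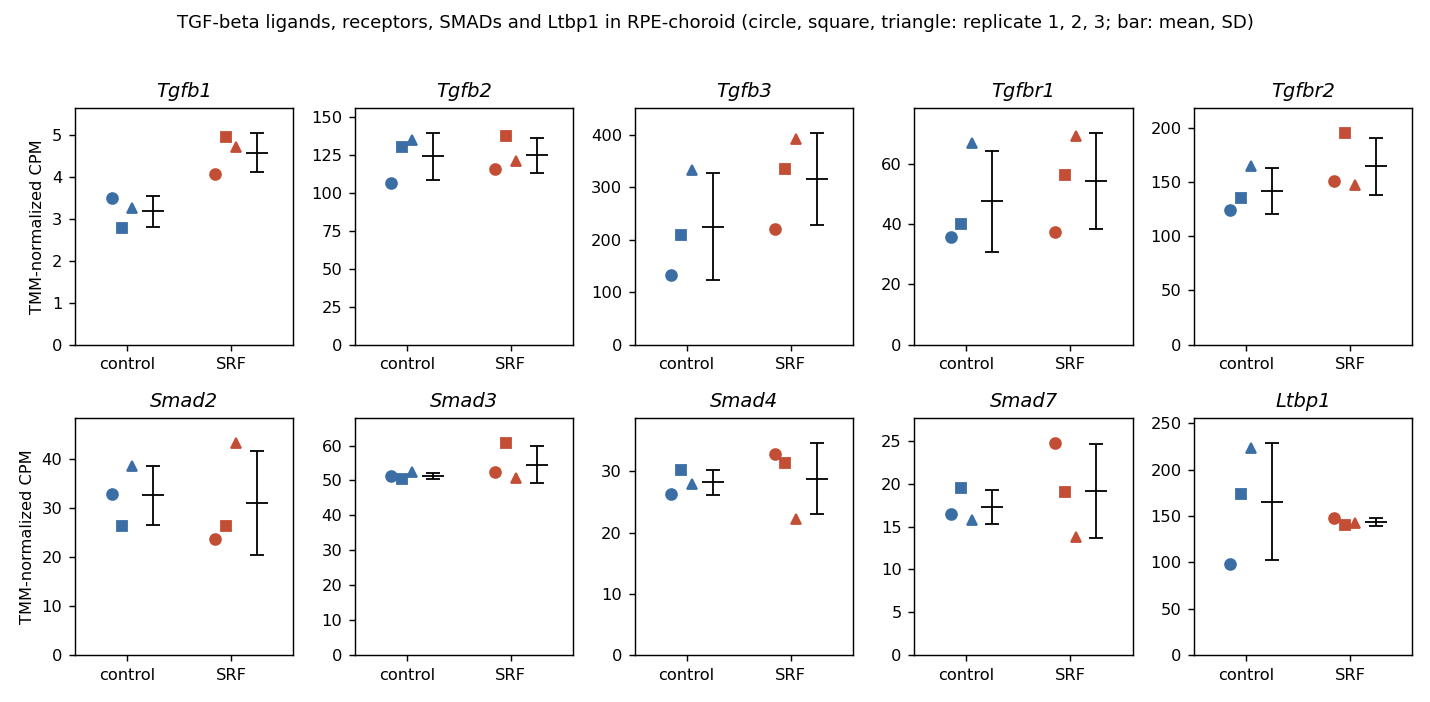
TMM-normalized CPM of the 10 members in each library, with the mean and SD of each group of 3 mice; every axis starts at 0. The groups are apart for Tgfb1 and overlap for the other 9 members, and Ltbp1 spans 98.6 to 223 CPM in control but 140 to 148 CPM in SRF mice.

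Tgfb2 (ENSMUSG00000039239, chromosome 1, 186622792 to 186705989, reverse strand) encodes the isoform best known from the eye, where it is abundant in the aqueous humour and the RPE. It was at 107, 130 and 135 CPM in control replicates 1, 2 and 3 and at 116, 137 and 121 CPM in SRF replicates 1, 2 and 3. Both groups covered the same range. The log2 fold change was 0.01 with a standard error of 0.13 and a 95% confidence interval of -0.31 to 0.32, which bounds a change in either direction more closely than for the other ligands. The sign of so small a value turned without control replicate 1 (-0.09) and without SRF replicate 2 (-0.07).

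Tgfb3 (ENSMUSG00000021253, chromosome 12, 86056745 to 86079041, reverse strand) encodes an isoform typical of mesenchymal cells. It was at 133, 208 and 334 CPM in control replicates 1, 2 and 3 and at 221, 335 and 392 CPM in SRF replicates 1, 2 and 3. Control replicate 3 reached the level of SRF replicate 2, and the lowest SRF mouse was close to the middle control mouse. The log2 fold change of 0.49 (standard error 0.35) was nearly as large as that of Tgfb1, but its 95% confidence interval ran from -0.35 to 1.33. It was 0.23 without control replicate 1, 0.31 without SRF replicate 3 and 0.89 without control replicate 3. The within-group SD was 45.0% of the mean in control mice, against a median of 14% over all tested genes. The gene overlaps Ttll5, which is counted and runs on the opposite strand, but 0 of its 3383 exonic bases are shared with exons of that gene.

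Tgfb3 moved over the libraries together with the mean level of a list of fibroblast and mural cell markers. The mean log2 CPM of 10 such markers was 8.07, 8.34 and 8.70 in control replicates 1, 2 and 3 and 8.51, 8.80 and 8.61 in SRF replicates 1, 2 and 3. Control replicate 1 was lowest, followed by control replicate 2 and SRF replicate 1, for both this mean and Tgfb3, and the other 3 libraries were highest for both. Not every marker followed. The same 3 libraries were highest for Pdgfra, Col1a1, Col1a2, Dcn, Lum and Rgs5. In contrast, Acta2, Tagln and Cspg4 were lowest in SRF replicate 3, at 371, 79.6 and 22.5 CPM, where Tgfb3 was highest. Of the 10 markers 1, Pdgfrb, had an unadjusted p-value under 0.05 with higher values in SRF, against 4.16% of all tested genes. The summed level of the list was 5835 to 12220 CPM in control and 8238 to 12896 CPM in SRF mice, and none of the 10 was at 0. With the marker mean as a covariate the log2 fold change of Tgfb3 was 0.04 (standard error 0.23), that of Tgfbr2 0.01, that of Tgfbr1 -0.16 and that of Ltbp1 -0.51, while that of Tgfb1 was 0.51. This fit was chosen after the data had been seen, and 0 members were called in it. Its covariate includes Col1a1, Col1a2, Acta2 and Tagln, which are known to be induced by TGF-beta. The fit therefore cannot separate the level of these cells from a response of the pathway.

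**Figure D3:**
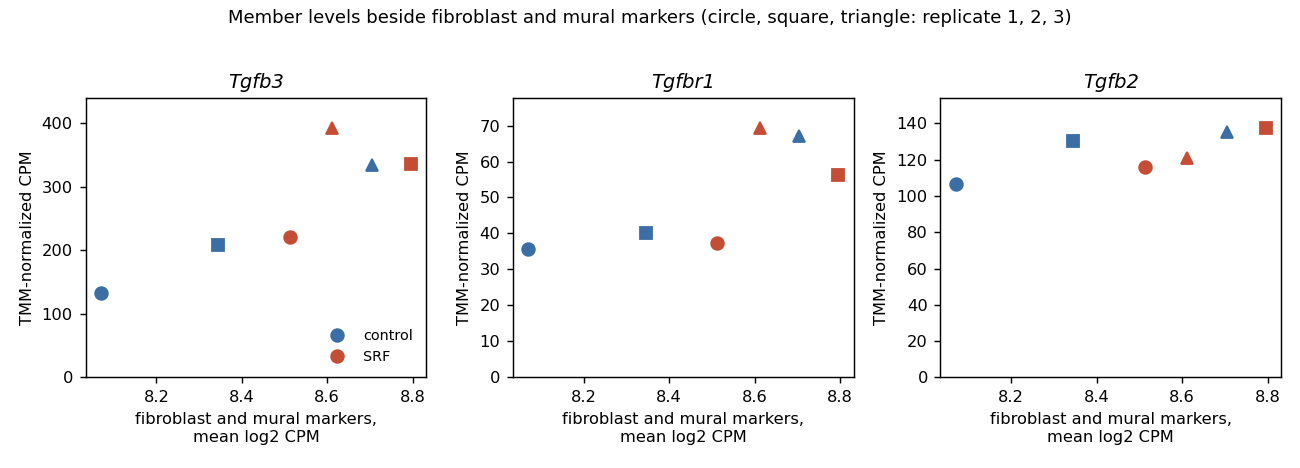
CPM of Tgfb3, Tgfbr1 and Tgfb2 in each library against the mean log2 CPM of 10 fibroblast and mural cell markers. For Tgfb3 and Tgfbr1 the 3 libraries with the highest marker level, control replicate 3 and SRF replicates 2 and 3, are also the 3 highest, whereas Tgfb2 spans only 107 to 137 CPM.

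Ltbp1 (ENSMUSG00000001870, chromosome 17, 75005568 to 75392512, forward strand) encodes the protein that anchors latent TGF-beta in the matrix. It was at 98.6, 174 and 223 CPM in control replicates 1, 2 and 3 and at 148, 140 and 142 CPM in SRF replicates 1, 2 and 3. The SRF mice agreed within an SD of 3.79 CPM, whereas the control mice had an SD of 62.8 CPM and lay on both sides of them. The log2 fold change was -0.21 (standard error 0.27), and it was 0.07 without control replicate 3 and -0.47 without control replicate 1.

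For both receptors the groups overlapped. Tgfbr2 (ENSMUSG00000032440, chromosome 9, 116084293 to 116175360, reverse strand), which binds the ligand, was at 124, 136 and 165 CPM in control replicates 1, 2 and 3 and at 152, 195 and 148 CPM in SRF replicates 1, 2 and 3. SRF replicate 2 was the highest library and the other SRF mice lay within the control range. Its log2 fold change was 0.22 with a 95% confidence interval of -0.17 to 0.61, and it was 0.079 without SRF replicate 2, 0.13 without control replicate 1 and 0.34 without control replicate 3. Tgfbr1 (ENSMUSG00000007613, chromosome 4, 47353222 to 47414931, forward strand), the kinase that passes the signal on, was at 35.8, 40.0 and 67.0 CPM in control replicates 1, 2 and 3 and at 37.4, 56.2 and 69.2 CPM in SRF replicates 1, 2 and 3. The groups covered nearly the same range, and the log2 fold change of 0.19 (95% confidence interval -0.54 to 0.91) became -0.02 without SRF replicate 3 and 0.52 without control replicate 3. Per length, Tgfbr2 was 2.31 to 3.11 times as abundant as Tgfbr1 in control and 2.03 to 3.54 times in SRF mice (FPKM ratios; exact permutation test, two-sided, p = 0.8).

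Among the SMADs, Smad3 (ENSMUSG00000032402, chromosome 9, 63646767 to 63757994, reverse strand) was the steadiest gene of the family. It was at 51.3, 50.4 and 52.3 CPM in control replicates 1, 2 and 3 and at 52.3, 60.6 and 50.8 CPM in SRF replicates 1, 2 and 3. The control SD was 1.83% of the mean, and only SRF replicate 2 lay clearly outside the control range. The log2 fold change was 0.09, with a 95% confidence interval of -0.19 to 0.36, and it was 0.0064 without SRF replicate 2 and 0.14 without SRF replicate 3. Smad2 (ENSMUSG00000024563, chromosome 18, 76241580 to 76310963, forward strand), the other receptor-activated SMAD here, was at 32.9, 26.4 and 38.5 CPM in control replicates 1, 2 and 3 and at 23.6, 26.3 and 43.2 CPM in SRF replicates 1, 2 and 3. Its highest libraries were replicate 3 of both groups, and SRF replicate 1 was the lowest. The log2 fold change of -0.07 (95% confidence interval -0.68 to 0.54) turned sign without control replicate 3 (0.07), SRF replicate 1 (0.09) or SRF replicate 2 (0.04). The FPKM ratio of Smad3 to Smad2 was 0.855 to 1.21 in control and 0.685 to 1.61 in SRF mice.

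Smad4 (ENSMUSG00000024515, chromosome 18, 73639009 to 73703780, reverse strand), the partner shared with the bone morphogenetic protein pathway, ranged from 26.3 to 30.3 CPM in control and from 22.2 to 32.9 CPM in SRF mice. Its log2 fold change was 0.03, with a 95% confidence interval of -0.37 to 0.44, and the sign turned without control replicate 1 (-0.01), SRF replicate 1 (-0.08) or SRF replicate 2 (-0.03). SRF replicate 3 was the lowest library. Smad7 (ENSMUSG00000025880, chromosome 18, 75367529 to 75395935, forward strand), the inhibitory SMAD that the pathway itself induces, was at 16.5, 19.5 and 15.7 CPM in control replicates 1, 2 and 3 and at 24.7, 19.0 and 13.7 CPM in SRF replicates 1, 2 and 3. The highest and the lowest library were both SRF mice, and the log2 fold change of 0.15 (95% confidence interval -0.40 to 0.70) became -0.08 without SRF replicate 1 and 0.35 without SRF replicate 3.

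Smad7 looked different in the authors' FPKM. There it was at 4.20, 4.45 and 3.62 in control replicates 1, 2 and 3 and at 5.85, 4.54 and 4.77 in SRF replicates 1, 2 and 3, so that the groups did not overlap (two-sided p = 0.1 by exact permutation, which 3 mice against 3 cannot undercut). FPKM groups stood apart with higher SRF values for 2 of the 10 members, Tgfb1 and Smad7, against 8.76% of all tested genes, and with lower SRF values for 0 of the 10, against 3.95%. The FPKM obtained per CPM of Smad7, relative to the median gene of the library, was 0.952 in SRF replicate 3 and 0.640 to 0.713 in the other libraries. SRF replicate 3 went from the lowest library in CPM to the second highest in FPKM, and SRF replicate 2 and control replicate 2, which are close in both units, also changed places. For Tgfb1 the same quantity was 1.44 in SRF replicate 2 and 1.26 to 1.28 in the others, and there the groups stood apart in both units.

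In FPKM the order of the members was clear at 4 places. Tgfb3, with a mean of 80.0 FPKM over the 6 libraries, was above the next gene, Ltbp1, in 6 of 6 libraries. Ltbp1, Tgfb2 and Tgfbr2 followed with means of 29.2, 26.6 and 25.7 FPKM, and their order was not the same in every library. Tgfbr2 was above Smad3 in 6 of 6 libraries. Smad3, Smad2, Tgfbr1 and Smad4 came next with means of 10.4, 9.90, 9.35 and 8.41 FPKM and overlapping ranges. Smad4 was above Smad7 in 6 of 6 libraries, and Smad7, with a mean of 4.57 FPKM, was above Tgfb1, with a mean of 1.84 FPKM, in 6 of 6.

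Among the genes that store and release latent TGF-beta there were larger differences than among the members, Itgb5 having the largest. Of 22 such genes, 21 were tested, 0 were called by edgeR and 5 by DESeq2, which called 1.14% of all tested genes. Unadjusted p-values under 0.05 were found for 5 genes with higher and 2 genes with lower values in SRF, against 4.16% and 2.85% of all tested genes, and the list's median log2 fold change was 0.28. The 5 genes called by DESeq2 were 3 integrin chains, a thrombospondin and a membrane protease.

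The integrin chains did not go one way. Itgb8, whose product pairs with the alpha V chain to activate latent TGF-beta, was at 826, 831 and 876 CPM in control replicates 1, 2 and 3 and at 604, 551 and 608 CPM in SRF replicates 1, 2 and 3. Itgav, the alpha V chain itself, was at 289, 294 and 289 CPM in control and at 214, 196 and 179 CPM in SRF mice. In CPM both genes were lower in every SRF mouse than in every control mouse, whereas in FPKM the groups overlapped for Itgav, with 184 in control replicate 3 and 206 in SRF replicate 1. The log2 fold changes were -0.52 (standard error 0.10) for Itgb8 and -0.57 (standard error 0.11) for Itgav, with Benjamini-Hochberg adjusted p-values of 0.280 and 0.264 in edgeR against 1.76e-04 and 3.33e-04 in DESeq2. Of 10 RPE markers, 9 had a log2 fold change below 0, with a median of -0.41 over the 10, and their part in the integrin values was not tested.

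Itgb5, another partner of alpha V, was at 97.0, 94.6 and 92.0 CPM in control replicates 1, 2 and 3 and at 180, 215 and 203 CPM in SRF replicates 1, 2 and 3. Every SRF mouse was far above every control mouse, and the log2 fold change was 1.07 with a standard error of 0.11 (adjusted p = 0.106 by edgeR and 1.75e-14 by DESeq2). Without both libraries high in photoreceptor RNA it was also 1.07, and edgeR then called it (adjusted p = 0.0136). The other beta chains of the list, Itgb1, Itgb6 and Itgb3, averaged 236, 10.4 and 5.93 CPM in control against 257, 8.98 and 6.25 CPM in SRF mice, with unadjusted p-values of 0.444, 0.442 and 0.780 in edgeR's test.

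Thbs1, a matricellular protein that can release active TGF-beta, was at 275, 400 and 609 CPM in control replicates 1, 2 and 3 and at 685, 888 and 975 CPM in SRF replicates 1, 2 and 3. The groups did not overlap, although the control mice differed among themselves, and a log2 fold change of 0.99 was fitted with a standard error of 0.29 (adjusted p = 0.465 by edgeR and 0.0479 by DESeq2). Control replicates 1, 2 and 3 stood in the same order for Thbs1 as for the mean of the fibroblast and mural markers. The SRF mice did not, as Thbs1 was highest in SRF replicate 3 and the marker mean in SRF replicate 2 (8.80 against 8.61). SRF replicate 1 was above control replicate 3 for Thbs1 but below it for the marker mean (8.51 against 8.70). With that mean, which includes genes induced by TGF-beta, as a covariate the log2 fold change of Thbs1 was 0.61 (adjusted p = 0.651 by edgeR). Without both libraries high in photoreceptor RNA it was 0.64. The part of fibroblasts and mural cells in the Thbs1 value was not tested. Mmp14, a membrane-bound metalloproteinase, averaged 114 ± 19.3 CPM in control mice and 180 ± 26.2 CPM in SRF mice (SD over 3 mice each). Its log2 fold change was 0.66 (adjusted p = 0.410 by edgeR and 0.0498 by DESeq2) and was 0.43 with the same covariate. Bmp1, a procollagen protease that also cleaves latent binding proteins, had a log2 fold change of 0.60 (standard error 0.19) and was not called by either tool. The other latent binding proteins Ltbp2, Ltbp3 and Ltbp4 had log2 fold changes of 0.50, 0.28 and 0.32 with unadjusted p-values of 0.204, 0.197 and 0.0624.

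**Figure D4:**
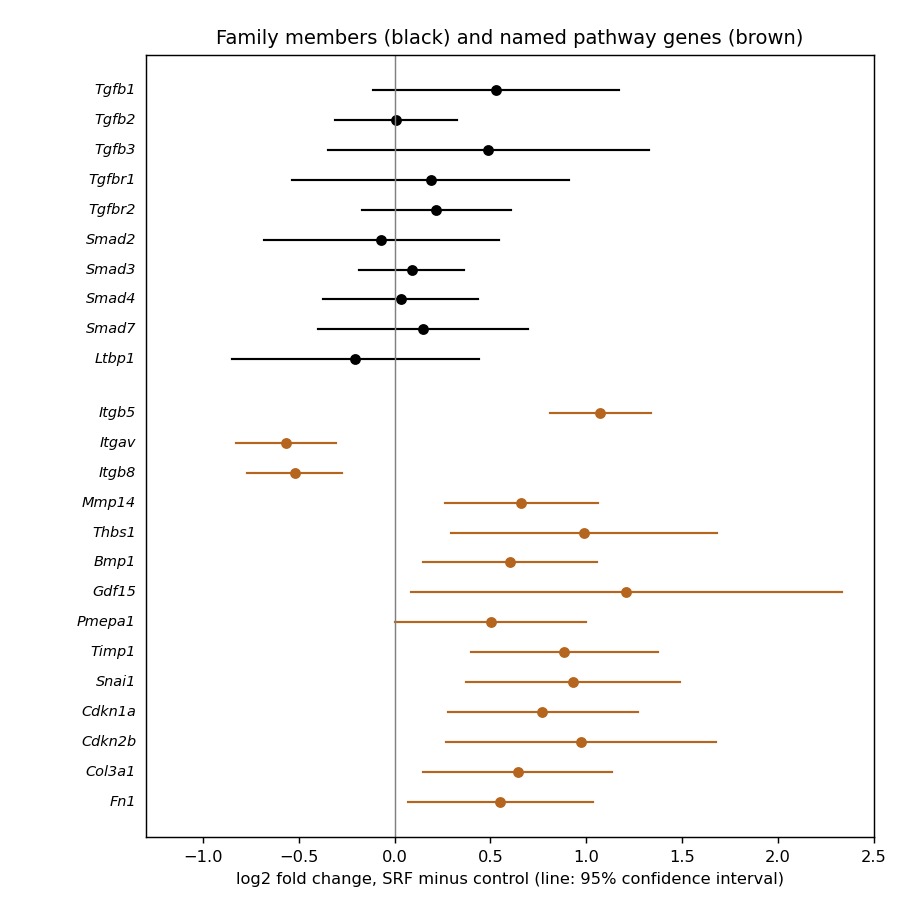
Log2 fold changes (SRF minus control) with 95% confidence intervals from edgeR for the 10 members in black and for the pathway genes with an unadjusted p-value under 0.05, at most 6 a list, in brown. The interval of every member includes 0, the largest member value being 0.53 for Tgfb1, while Itgb5 stands at 1.07 and Itgav and Itgb8 stand at -0.57 and -0.52.

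Of 13 coreceptors, other receptors and related ligands, 12 were tested, and 1 had an unadjusted p-value under 0.05, a share near the 7.01% of all tested genes. This was Gdf15, a distant relative of the ligands induced by cell stress. Its mean was 1.55 ± 0.833 CPM in control mice against 3.57 ± 0.578 CPM in SRF mice (SD over 3 mice each). The counts behind it were low, at 19, 45 and 19 in control mice and 67, 74 and 53 in SRF mice. Only SRF libraries exceeded the minimum count of the filter, so Gdf15 was tested only because of its higher SRF counts. The coreceptors Tgfbr3 and Eng had log2 fold changes of -0.09 and 0.03, and the list's median was 0.15. Of 16 intracellular regulators, all were tested, and 1 had an unadjusted p-value under 0.05, again near the 7.01% of all tested genes. It was Pmepa1, a TGF-beta-induced inhibitor of SMAD signaling, with a mean of 55.4 ± 10.3 CPM in control mice against 78.5 ± 17.7 CPM in SRF mice (SD over 3 mice each), overlapping groups and an adjusted p of 0.706 by edgeR. The median of the regulators was 0.07, and neither edgeR nor DESeq2 called a gene of these 2 lists.

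Genes known to be induced by TGF-beta were examined as a readout of the pathway. Of 21 such genes 20 were tested, 0 were called by edgeR or by DESeq2, and 6 had an unadjusted p-value under 0.05 with higher values in SRF, against 4.16% of all tested genes, and 0 with lower values, against 2.85%. The median log2 fold change was 0.31. The 6 were Timp1, an inhibitor of metalloproteinases, the transcription factor Snai1, the cell cycle inhibitors Cdkn1a and Cdkn2b, the fibrillar collagen gene Col3a1 and the fibronectin gene Fn1. Timp1 was at 5.51, 7.0 and 7.97 CPM in control replicates 1, 2 and 3 and at 13.3, 13.1 and 11.5 CPM in SRF replicates 1, 2 and 3. Snai1 averaged 9.68 ± 1.16 CPM in control mice against 18.5 ± 5.27 CPM in SRF mice (SD over 3 mice each). Both were higher in every SRF mouse than in every control mouse, with log2 fold changes of 0.89 (standard error 0.21) and 0.93 (standard error 0.24).

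Cdkn1a averaged 30.0 CPM in control against 51.3 CPM in SRF mice (log2 fold change 0.77, called by edgeR without both libraries high in photoreceptor RNA, with an adjusted p of 0.0329) and Cdkn2b averaged 3.89 against 7.67 CPM (log2 fold change 0.97). Col3a1 had a log2 fold change of 0.64 and Fn1 one of 0.55, and the groups overlapped for Fn1. Without SRF replicate 2 the value of Col3a1 was 0.41. With the fibroblast and mural level, which shares genes with this list, as a covariate that of Fn1 was 0.31. The contractile genes of myofibroblasts did not share this direction, as Acta2 averaged 505 CPM in control against 455 CPM in SRF mice (log2 fold change -0.15) and Tagln averaged 113 against 105 CPM (log2 fold change -0.10). The genes Ccn2 and Tgfbi, often used to read out TGF-beta, had log2 fold changes of 0.45 and -0.13 with unadjusted p-values of 0.206 and 0.483. Several genes of the list respond to other signals too, and the collagen, Acta2 and Tagln genes also mark fibroblasts or mural cells. The summed level of the macrophage markers, given with Tgfb1 and mostly Lyz2, was higher in the same SRF libraries. The part of these cells in the values of the target and activation genes was not tested.

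**Figure D5:**
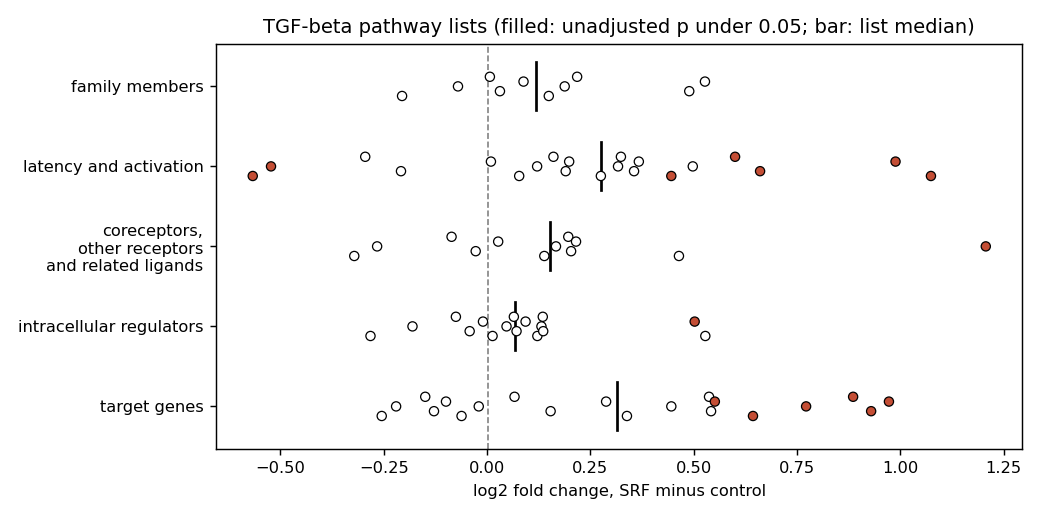
Log2 fold changes (SRF minus control) of the tested genes of the family and of 4 pathway lists, each point a gene, filled where the unadjusted p-value was under 0.05, with a bar at each list's median and a dashed line at the median of all tested genes. No family member is filled, while 7 genes of latency and activation and 6 target genes are.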

How the data were processed

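RNA-seq of RPE-choroid from 3 control and 3 SRF mice was analysed, with groups and replicate numbers from the sample titles. The authors filtered reads with FASTP, counted reads per gene with StringTie and deposited raw counts. The authors also deposited FPKM, scaled by transcript length and mapped reads. The aligner, genome build and strandedness are not given in the sources used here. Identifiers were matched to GENCODE M21 on GRCm38, which held 15659 of 15663.

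The 13454 genes that exceeded 50 counts in 2 or more samples were tested, 2209 being left out, with edgeR 4.0.16 (TMM, estimateDisp, glmQLFit with legacy = TRUE, glmQLFTest, group as the only term) in R 4.3.3. P-values were Benjamini-Hochberg adjusted over all tested genes. TMM scaling factors entered the CPM, an SD is over the 3 mice of a group, and confidence intervals are 95%. The median standard error over all tested genes was 0.19 (log2). Standard errors of the members did not simply follow their counts. They were 0.35 for Tgfb3, with 1789 to 7997 counts per library, and 0.12 for Smad3, with 689 to 1253. Other settings used DESeq2 1.42.0, limma voom (3.58.1), limma on log2(FPKM + 0.1) or, with a larger pseudocount, log2(FPKM + 1), changed normalizations and filters, marker levels as covariates, a replicate block and leaving out mice. Same-numbered mice are different animals, so no pairing was used. Members, lists and alternatives were chosen with earlier results of these data known. Named were all members and, of each pathway list, at most 6 genes with an unadjusted p under 0.05 (of each marker list at most 2), besides listed genes given for their role, which were chosen after their values were seen.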

Additional observations from a re-analysis of the deposited data

How the results depend on the processing

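No member was called in any of 19 other settings, and 17 of 190 member values changed sign. Over all tested genes 0 were called as reported, 153 with DESeq2, 153 with both libraries high in photoreceptor RNA left out (85 shared with DESeq2), and 1 with each of edgeR's newer quasi-likelihood form, limma voom, upper quartile normalization, no filter on counts, filterByExpr and the photoreceptor level as a covariate. With 1 mouse left out the count ran from 0 to 5, the 5 being without control replicate 1. Log2 fold changes of changed sign were -0.0031 for Tgfb2 and -0.023 for Smad4 with the photoreceptor covariate, -0.15 for Tgfb2 and -0.16 for Tgfbr1 with the fibroblast and mural covariate, which was chosen after seeing the data, and -0.073 for Tgfb2 and -0.20 for Tgfbr1 with both libraries left out. With 1 mouse left out the values ran from -0.088 to 0.072 for Tgfb2, -0.023 to 0.52 for Tgfbr1, -0.38 to 0.088 for Smad2, -0.076 to 0.19 for Smad4, -0.078 to 0.35 for Smad7 and -0.47 to 0.073 for Ltbp1. The cause was not tested. Tgfb3 ranged from 0.03 with both libraries left out to 0.89 without control replicate 3, and the Tgfb2 share difference from -10.5 to -1.92 percentage points.

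In the fit with a replicate block 0 genes were called, 1206 against 943 had an unadjusted p under 0.05, and Tgfb3 had a log2 fold change of 0.55 (unadjusted p = 0.0120, adjusted p = 0.440 by edgeR). Deviations of same-numbered mice from their group means correlated across genes at -0.48, 0.47 and -0.31. The 2 libraries high in photoreceptor RNA carry different numbers and can weigh on these values. The correlations therefore cannot show whether same-numbered libraries were handled together. Depth limits Tgfb1 most, with at most 89 counts per library.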
